A study of Homo sapiens with 4 samples.

Results

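The miR-320 loci and MIR484 are miRNA genes linked to a route that makes precursors without Drosha, the nuclease of the Microprocessor complex. That route is best described for MIR320A and MIR484, and its use was not tested here for any locus. The members were found by gene symbol, from the Ensembl identifier or the exact genomic position of each feature, as the 6 miR-320 loci MIR320A, MIR320B1, MIR320B2, MIR320C1, MIR320C2 and MIR320E, together with MIR484. These are 7 of the 7062 small RNA features in the deposited count tables, 1869 of which are miRNAs. Small RNA had been sequenced from HEK293T cells, a human embryonic kidney line named HEK293 in part of the labels, that lived on a transfected form of RNA polymerase II (Pol II). The 52X T4A cells carried a largest subunit whose C-terminal domain (CTD) has alanine in place of threonine at the fourth position of its heptad repeats, and the 52X WT cells carried the wild-type domain. Both groups were transfected transiently with 1.5 µg of plasmid per well and selected in 2.5 µg/ml α-amanitin, a Pol II poison, for 72 h, and each group had 2 libraries, numbered 1 and 2.

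Most miRNAs are cut out of a long Pol II transcript by the Microprocessor. A small class takes another route, best described for MIR320A and MIR484: Pol II starts transcription at the first base of the hairpin, the short capped transcript leaves the nucleus without Drosha processing, and Dicer cuts it in the cytoplasm. The 5′ end of such a precursor is thus the transcription start site itself. The mutated residue lies in the CTD, the tail of Pol II that carries capping and processing factors from the start of transcription onward. The comparison asks how the levels of these miRNAs differ when that residue cannot be phosphorylated.

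The mature sequences are shown because they bear on which of the printed loci can be told apart by their reads. They come from RefSeq (GRCh38.p14), are written 5′ to 3′, and have the seed, bases 2 to 8, in capitals. An entry was matched for 6 of the 7 members, and MIR320A is named only.
miR-320b (MIR320B1 and MIR320B2): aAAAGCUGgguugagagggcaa
miR-320c (MIR320C1 and MIR320C2): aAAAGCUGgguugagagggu
miR-320d (MIR320D1, listed but not a member): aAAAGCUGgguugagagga
miR-320e (MIR320E): aAAGCUGGguugagaagg
miR-484 (MIR484): uCAGGCUCaguccccucccgau
Positions are counted from 1 at the 5′ end of miR-320b. The 20-base miR-320c has the first 19 bases of miR-320b and then C20U, and the 19-base miR-320d has the first 18 and then G19A. The 18-base miR-320e lacks the first base, follows miR-320b for 15 bases and then has G17A. Losing that base moves the seed of miR-320e to AAGCUGG, against AAAGCUG for miR-320b, miR-320c and miR-320d. The seed of miR-484, CAGGCUC, is unrelated. GC content was 50% for miR-320b, miR-320c and miR-320e and 63.6% for miR-484. The mature miR-484 begins at base 8 of its 79-base hairpin, while miR-320b from MIR320B1 begins at base 42 of 72, so the miR-484 strand lies near the 5′ end of the hairpin and the miR-320b strand in its 3′ part.

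The loci sit in different genomic settings (deposited coordinates, hg38). MIR320A (ENSG00000208037.1) spans chr8:22244962-22245043 on the minus strand. Its 5′ end lies 90 bases from the RefSeq start of POLR3D, a gene for a Pol III subunit that is transcribed in the opposite direction. MIR484 (ENSG00000283736.1) spans chr16:15643294-15643372 on the plus strand, 10 bases before the RefSeq start of NDE1 on the same strand and 140 bases from the start of MARF1 on the other. GENCODE v44lift37 places MIR484 in an untranslated exon of NDE1. Both loci best known for Microprocessor bypass therefore lie within 100 bases of an annotated start of a protein-coding gene. MIR320B1 (ENSG00000211543.2, chr1:116671749-116671827, plus strand) has no protein-coding or long noncoding RefSeq gene over it. MIR320B2 (ENSG00000221406.1, chr1:224257004-224257141, minus strand) lies in an intron of NVL and MIR320E (ENSG00000211513.5, chr19:46709293-46709345, minus strand) in an intron of PRKD2, each on the strand of its host. MIR320C1 (ENSG00000221493.1, chr18:21683510-21683597) and MIR320C2 (ENSG00000212051.1, chr18:24321686-24321735), on the plus strand, lie opposite to introns of ABHD3 and OSBPL1A.

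The libraries held 16180790 to 27370127 counts, of which 63.5% to 75.3% fell on miRNAs. After low counts were filtered out, 1480 features were tested, 621 of them miRNAs. 52X WT replicate 1 stood apart from the other libraries, with an SD of the log2 ratio of 0.78 to 0.86 in its pairs against 0.52 to 0.64 in the pairs without it. RPB1 cannot be checked in small RNA tables, so the genotype rests on the labels. The labels do not say whether replicates came from separate cultures, though the series text calls them biological, and p-values measure the spread between these libraries. In bulk libraries a lower level per cell and a smaller share of cells with the RNA cannot be told apart.

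MIR320A was the most abundant member. Its counts were 5502 and 11159 in 52X T4A replicates 1 and 2, and 4620 and 4284 in 52X WT replicates 1 and 2. As CPM, the usual depth-scaled count, here with TMM factors, the 52X T4A libraries had 348 and 353 and the 52X WT libraries 317 and 228. Both 52X T4A libraries lay above both 52X WT libraries, but the closest values were near each other and most of the gap came from 52X WT replicate 2. The 52X T4A libraries averaged 351 ± 4.11 CPM and the 52X WT libraries 272 ± 63.0 CPM (SD, n = 2), which is 0.37 ± 0.25 (SE) as a log2 fold change of 52X T4A over 52X WT. The edgeR quasi-likelihood test gave a p-value of 0.178 and a Benjamini-Hochberg adjusted p of 0.584, so the difference was not called. The 52X WT replicates differed from each other by 1.39-fold, more than the 1.29-fold difference between the groups. Among the tested miRNAs, 91 were more abundant than MIR320A.

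**Figure D1:**
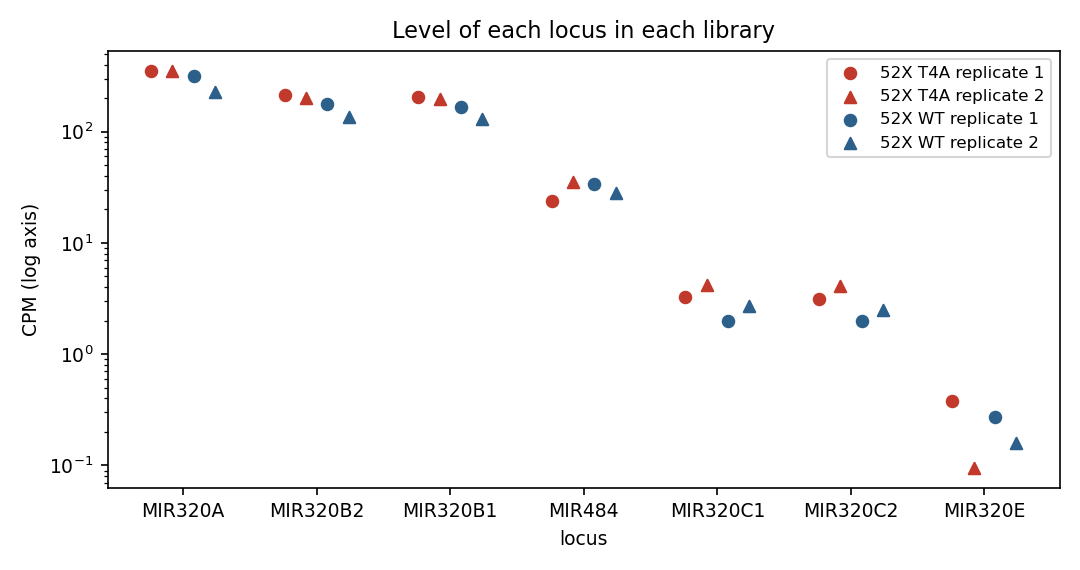
Level of each member in each library, in CPM on a log axis; red marks are 52X T4A, blue marks 52X WT, circles replicate 1 and triangles replicate 2. MIR320A sits at 228 to 353 CPM and MIR484 at 23.8 to 34.9 CPM, and the red marks lie above the blue ones for the 5 miR-320 loci with enough counts to be tested.

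MIR320B1 and MIR320B2, which encode the same mature miR-320b, followed MIR320A. MIR320B1 had 205 and 195 CPM in 52X T4A, and 167 and 129 CPM in 52X WT. MIR320B2 had 213 and 202 CPM in 52X T4A, and 176 and 135 CPM in 52X WT. The groups did not overlap at either locus, and again 52X WT replicate 2 was the lowest library. The log2 fold changes were 0.43 ± 0.26 for MIR320B1 and 0.41 ± 0.25 for MIR320B2 (SE), with adjusted p-values of 0.521 and 0.542 in the same edgeR test. MIR320B1 lay 118 to 234 counts below MIR320B2 in each library, at 96.3% of it in both 52X T4A libraries. How reads that match several loci were counted is not given in the sources used here, and the pair cannot be taken as separate observations.

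MIR320C1 and MIR320C2, the loci of miR-320c, were far less abundant, and MIR320C1 had 0.628% to 1.19% of the counts of MIR320A. MIR320C1 had 52 and 133 counts in 52X T4A, and 29 and 51 in 52X WT. MIR320C2 had 50 and 130 counts in 52X T4A, and 29 and 47 in 52X WT. The counts of the pair differed by at most 4 in any library, so these loci too cannot be taken as separate observations. In CPM the values for MIR320C1 were 3.29 and 4.21 in 52X T4A, and 1.99 and 2.71 in 52X WT, without overlap between the groups. The largest log2 fold changes of the members were here, 0.68 ± 0.37 for MIR320C1 and 0.70 ± 0.37 for MIR320C2 (SE), with edgeR adjusted p-values of 0.480 and 0.467.

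MIR320E was near the limit of detection. It had 6 and 3 counts in 52X T4A, and 4 and 3 in 52X WT, or 0.0950 to 0.379 CPM. These 16 counts did not pass the filter, and no difference between the groups was detectable at this depth. MIR320D1 (chr13:40727828-40727875), a further autosomal miR-320 locus that is not among the members, had 5 and 16 counts in 52X T4A, and 9 and 1 in 52X WT. MIR320D2 on the X chromosome had 2 to 12 counts per library. Neither was tested.

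MIR484 showed no such separation of the groups. Its counts were 376 and 1103 in 52X T4A, and 494 and 530 in 52X WT. In CPM these were 23.8 and 34.9 in 52X T4A, and 33.9 and 28.2 in 52X WT. The 52X WT values lay between the 52X T4A values, and the 52X T4A replicates differed by 1.47-fold. The 52X T4A libraries averaged 29.3 ± 7.90 CPM and the 52X WT libraries 31.0 ± 4.03 CPM (SD, n = 2), or −0.08 ± 0.32 (SE) on the log2 scale (edgeR adjusted p 0.969). The 95% interval ran from −0.80 to 0.65, so a change of 1.5-fold in either direction remains within it. The sign of this change depended on the scaling, and was positive with upper quartile factors (0.10) or library size alone (0.13).

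None of the 6 tested members was called at an adjusted p below 0.05 and a fold change above 1.5 in edgeR, where 0.135% of all tested features were. At an unadjusted p below 0.05 the count was 0 of 6 in edgeR and 0 of 6 in DESeq2. Over all features it was 10.3% in edgeR and 129 of 1480 in DESeq2. The 5 tested miR-320 loci were all higher in 52X T4A without overlap of the groups, where 18.9% of all tested features and 21.1% of tested miRNAs were, and 21.2% of all tested features were lower without overlap. These 5 loci encode 3 near-identical mature miRNAs and are not 5 independent observations. Their median log2 fold change was 0.43, beside −0.05 over all tested features and −0.02 over tested miRNAs. Of the tested miRNAs, 22.7% had a higher log2 fold change than MIR320A and 8.37% than MIR320C2, so the loci were in the upper part of the distribution and not at its edge. Upper quartile factors and library size alone raised the median of all features to 0.13 and 0.14. Relative to that median MIR320A stood at 0.41 in the reported fit, 0.42 with upper quartile factors and 0.42 with library size alone. Subtracting the median takes out a shift common to all features, so these near-equal values are no test of the scaling.

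**Figure D2:**
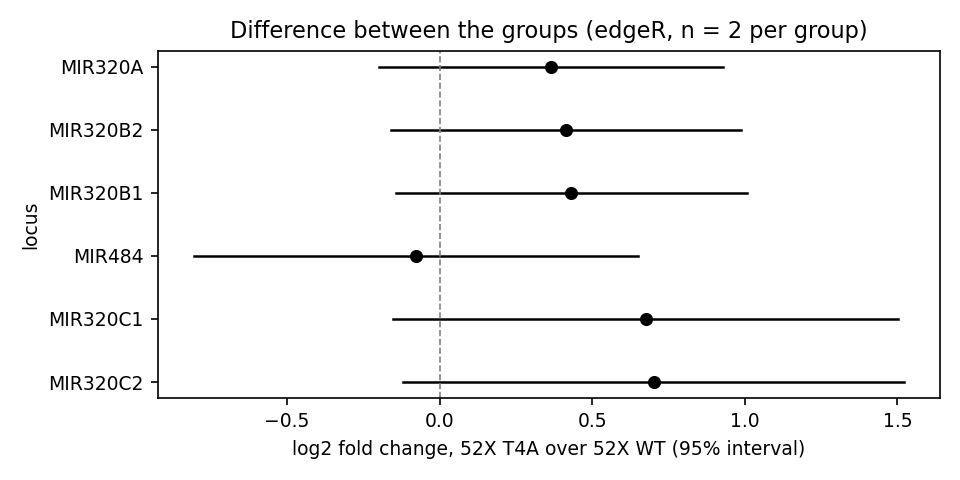
Log2 fold change of the 6 tested members, 52X T4A over 52X WT, with the 95% interval from edgeR as horizontal bars (n = 2 libraries per group). The points of the 5 miR-320 loci lie between 0.37 and 0.70 and that of MIR484 at −0.08, and every interval includes 0.

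**Figure D3:**
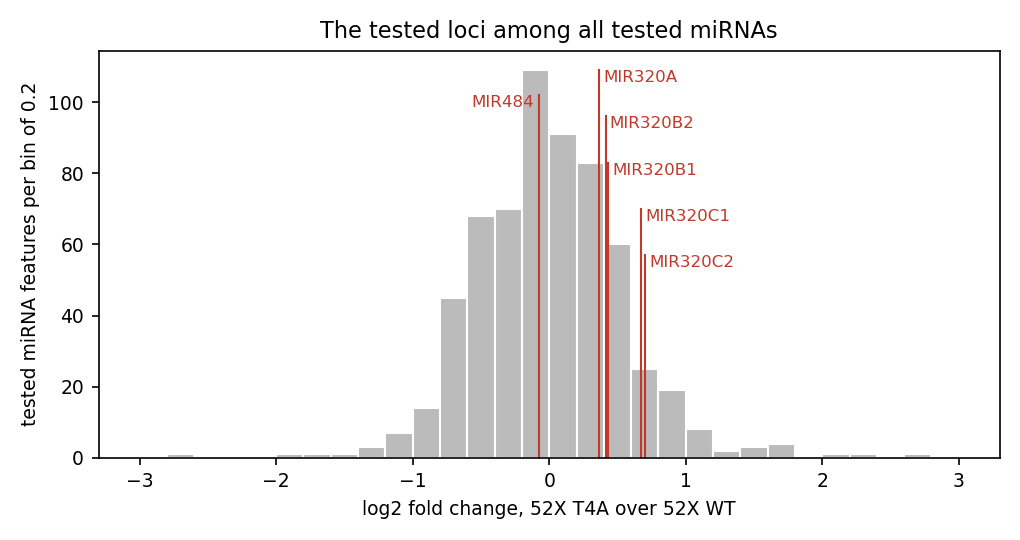
Number of tested miRNAs in bins of 0.2 on the log2 fold change axis, 52X T4A over 52X WT, for 621 miRNAs of which 3 lie outside the plotted range; red lines mark the tested members. MIR484 stands at −0.08 near the centre, and MIR320C2 at 0.70 on the right shoulder.

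Because loci can share reads, the family was also fitted as a single feature, with MIR320A, the largest locus in every library, in place of all listed miR-320 loci. On the log2 scale the family differed by 0.37 ± 0.25 (SE), with a 95% interval from −0.20 to 0.93 (edgeR adjusted p 0.588). A fold change of 1.5 in favour of 52X T4A lies inside this interval. The value depended on each 52X WT library, whereas without 52X T4A replicate 1 or 2 it was 0.36 or 0.37. Leaving out 52X WT replicate 2 lowered it to 0.15. Leaving out 52X WT replicate 1, the library that stood apart, raised it to 0.53. For MIR320B1 these values were 0.26 and 0.53, and for MIR320C1 they ran the other way, at 0.93 and 0.40. As shares of miRNA counts, MIR320A took 0.0480% and 0.0541% in 52X T4A, and 0.0449% and 0.0305% in 52X WT. Their exact (Clopper-Pearson) 95% intervals, which cover counting error only, ran from 0.0467% to 0.0493%, 0.0531% to 0.0552%, 0.0436% to 0.0462% and 0.0296% to 0.0314%. On these unscaled shares the spread between replicates exceeded counting error in both groups. As TMM-scaled CPM, however, the 52X T4A replicates differed by only 1.02-fold, against 1.39-fold in 52X WT.

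The members were then compared within each library, which needs no scaling factor. MIR484 had 6.83% and 9.88% of the counts of MIR320A in 52X T4A, and 10.7% and 12.4% in 52X WT. The groups did not overlap, but the smaller gap, between 52X T4A replicate 2 and 52X WT replicate 1, was below 1 percentage point. The log2 ratio of MIR484 to MIR320A averaged −3.60 in the 52X T4A libraries against −3.12 in the 52X WT libraries, a difference of −0.48. The exact two-sided permutation test gave p = 0.333, the smallest value that 2 libraries against 2 allow, and it was 1 of 6 such ratios compared. The count ratio to MIR320A was lower in 52X T4A without overlap for 47% of the other tested features, so the position of MIR484 was a common one.

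Within the miR-320 family the ratios overlapped between the groups. Reads that match several loci may enter both counts of such a ratio, and how they were counted is not given. MIR320B1 had 52.8% to 58.9% of the counts of MIR320A, with log2 ratios of −0.76 and −0.86 in 52X T4A, and −0.92 and −0.82 in 52X WT. The group means differed by 0.06 (exact permutation p = 0.667). MIR320C1 had log2 ratios of −6.70 and −6.38 in 52X T4A, and −7.27 and −6.36 in 52X WT, and the group means differed by 0.28 (exact permutation p = 1). The low value of MIR320C1 in 52X WT replicate 1 rests on 29 counts. Without that library the difference for MIR320C1 turned from 0.28 to −0.17.

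**Figure D4:**
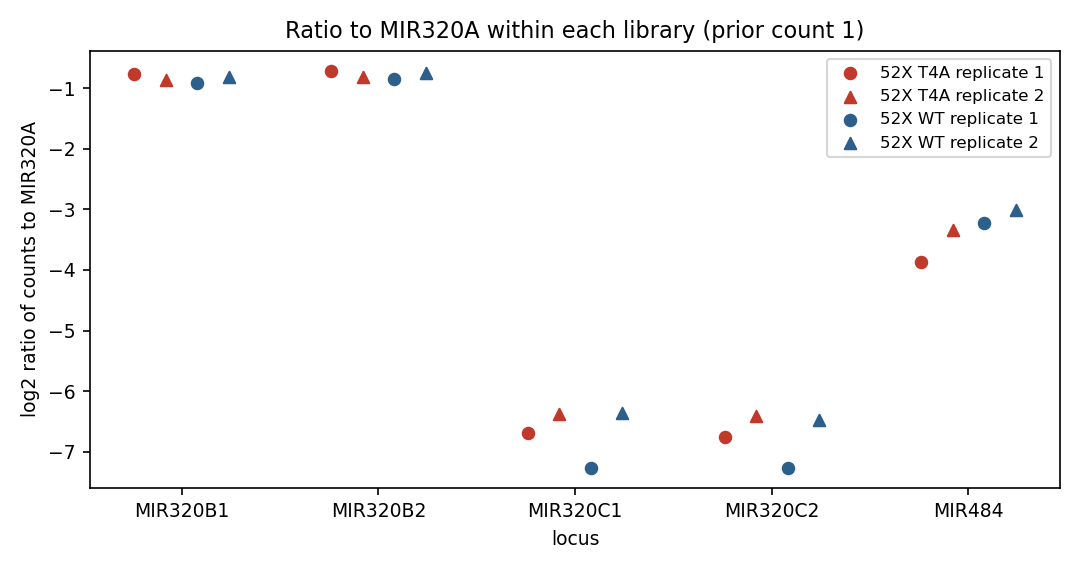
Log2 ratio of the counts of each locus to those of MIR320A in the same library (prior count 1); red marks are 52X T4A and blue marks 52X WT. MIR320B1 and MIR320B2 lie close together near −0.8 in all libraries, MIR320C1 and MIR320C2 near −6.4 to −7.3, and MIR484 is lower in 52X T4A (−3.87 and −3.34) than in 52X WT (−3.22 and −3.01).

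Levels of different loci were ordered per kilobase of annotated feature, as the mean CPM per kb over the 4 libraries. MIR320A came first at 3796, followed by MIR320B1 at 2201, MIR320B2 at 1315, MIR484 at 382, MIR320C2 at 58.8, MIR320C1 at 34.6, MIR320D1 at 7.77 and MIR320E at 4.28 CPM per kb. The gap between MIR320B1 and MIR320B2 reflects the lengths of the features, 79 and 138 bases, since their counts were nearly equal. The same holds for MIR320C2 over MIR320C1, with features of 50 and 88 bases, since MIR320C1 had 265 counts in all and MIR320C2 256. The ranges over libraries did not overlap between neighbours in this order, except for MIR320C2 with MIR320C1 and for MIR320D1 with MIR320E. MIR320D1 was above MIR320E in 2 of the 4 libraries, so the order of that pair is not settled. MIR320D2 was left out of the order, and its mean of 5.66 CPM per kb lay between those of that pair.

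Other miRNAs with the same seeds were looked up by sequence, after the values of the members had been seen. Outside the miR-320 loci, the seed AAAGCUG was found in the RefSeq table used here only in miR-4429 (MIR4429), which had 0 counts in all 4 libraries. The seed of miR-484 was shared by miR-3155a (MIR3155A), with 45 and 104 counts in 52X T4A, and 28 and 58 in 52X WT, and by miR-3155b (MIR3155B), with at most 1 count per library.
miR-484: uCAGGCUCaguccccucccgau
miR-3155a: cCAGGCUCugcagugggaacu
MIR484 thus supplied most of the counts with this seed in every library.

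Features with a profile like that of the members were searched among 751 with a mean of at least 100 counts, by the root mean square difference of log2 CPM after centring on the mean of each feature over the 4 libraries. The nearest to MIR320A was SNORD104, a C/D box snoRNA, at 0.06, with 1372 and 1307 CPM in 52X T4A, and 1155 and 916 CPM in 52X WT. MIR3127 and an unnamed feature (ENSG00000277947) followed at 0.08 and 0.10. The nearest to MIR484 were MIR324 at 0.04, with 14.2 and 19.7 CPM in 52X T4A, and 18.8 and 16.3 CPM in 52X WT, a Y_RNA copy at 0.04 and MIR125A at 0.05. Each profile has only 4 points, so these are descriptions.

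Mirtrons, which bypass Drosha by being spliced out as short introns, were set beside the members from a list of 10. Of these, 5 were tested, and all 5 had log2 fold changes above 0, where 682 of all 1480 features did, with a median of 0.57 beside −0.05 over all features. None was called in edgeR or in DESeq2, and 2 of 5 had an unadjusted p below 0.05 in edgeR, against 10.3% of all features. Apart from MIR877 and MIR1226, the tested mirtrons had at most 1.33 CPM in any library. The untested mirtrons had at most 8 counts per library and did not share a direction. MIR877, the most abundant, averaged 83.9 ± 20.7 CPM in the 52X T4A libraries against 49.6 ± 3.77 CPM in the 52X WT libraries (SD, n = 2), or 0.76 ± 0.30 on the log2 scale (SE, edgeR adjusted p 0.421). The next in abundance, MIR1226 and MIR1227, were at 0.14 ± 0.31 and 0.06 ± 0.43 (SE, edgeR adjusted p 0.917 and 0.981). miRNAs cut from snoRNA genes were listed for 6 of 8 symbols. Of 5 tested, 4 were above 0 and 1 below, with a median of 0.29, none called and none with an unadjusted p below 0.05 in edgeR. The most abundant were MIR664A at 0.39 ± 0.39, MIR6516 at 0.32 ± 0.41 and MIR1248 at −0.61 ± 0.56 (SE). MIR451A, whose precursor is cut by Drosha as usual and then by Argonaute in place of Dicer, had 3 to 13 counts per library and was not tested.

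Cells were grown in serum, and miRNAs of other tissues were therefore summed in each library. The 5 muscle miRNA loci MIR1-1, MIR1-2, MIR133A1, MIR133A2 and MIR206 totalled 96.5 and 81.6 CPM in 52X T4A, and 30.5 and 33.1 CPM in 52X WT, and none was at 0 counts in a library. All 4 tested muscle loci had an unadjusted p below 0.05 in edgeR, against 10.3% of all features, and none was called. MIR1-1 was at a log2 fold change of 1.46 ± 0.30 (SE, edgeR adjusted p 0.186). MIR1-1 and MIR1-2 had near-equal counts, as had MIR133A1 and MIR133A2, so these are not 4 separate observations. The muscle total may count the reads of such a pair more than once. The 6 blood and serum loci totalled 32.0 and 42.5 CPM in 52X T4A, and 61.5 and 50.0 CPM in 52X WT, with MIR144 at 0 counts in 1 library of each group. This total was almost entirely MIR486-1, at a log2 fold change of −0.65. The other tested blood loci, MIR150 and MIR142, were at 1.73 and 0.73, and the median of the 3 was 0.73. In 52X WT, however, MIR150 had only 3 and 9 counts and MIR142 only 4 and 10. MIR122 of liver, listed under 2 identifiers, was at 0.253 to 0.948 CPM, and the 3 neuronal MIR124 loci were at 4.36 to 12.1 CPM, overlapping between groups. The 8 loci listed as abundant in HEK293 and other proliferating cells totalled 210005 and 232706 CPM in 52X T4A, and 270173 and 242520 CPM in 52X WT, but MIR10A and MIR10B, at log2 fold changes of −0.20 and −0.17, supplied most of this total. All 8 loci were below 0, where 682 of all 1480 features were above it, and none was called. MIR21 was at −0.57 ± 0.19 (SE, edgeR adjusted p 0.367). MIR17, MIR18A, MIR19B1, MIR20A and MIR92A1 belong to the same cluster, and MIR10A and MIR10B had close counts. These are thus not 8 independent observations. The muscle total, mostly MIR1-1 and MIR1-2, was higher in 52X T4A, as were the miR-320 loci. The part of these lists in the values of the miR-320 loci was not tested.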

How the data were processed

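The authors deposited raw read counts, without normalization, for 7062 small RNA features in each of 4 libraries of single-end 50 bp reads. Per the labels, cutadapt v4.6, Bowtie2 v2.3.5.1, featureCounts v1.5.0 and hg38 were used; their settings, the annotation release and the handling of reads that match several loci are not given in the sources used here. Libraries held 16180790, 27370127, 16195105 and 19159242 counts (52X T4A 1 and 2, 52X WT 1 and 2). Symbols came from GENCODE v44lift37 by Ensembl identifier (5579 features) or from an identical RefSeq GRCh38.p14 position (908 features, MIR484 among them), and 575 features stayed unnamed. Only names and gene overlaps were taken from the GRCh37-based GENCODE models, and no coordinates were converted.

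Counts were tested in edgeR v4.0.16 (R v4.3.3) with filterByExpr (minimum count 10), TMM factors and the quasi-likelihood F test over all features, with Benjamini-Hochberg adjustment. Features were called where the FDR was below 0.05 and the groups differed by over 1.5-fold. The standard error is the log2 fold change divided by the square root of F. DESeq2 v1.42.0, other factors and filters, a robust fit, the replicate number as a block, removal of the 5 most abundant features and of each library were alternatives. The procedure was tested on simulated data. Count ratios used a prior count of 1 and the exact permutation test (SciPy v1.17.1). The members, gene lists and rules were chosen with earlier results of these data known. The named genes were the members, MIR320D1, up to 3 of the most abundant genes of each list, and the 3 nearest profiles; marker loci, MIR320D2, MIR4429, MIR3155A, MIR3155B and host genes were named besides.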

Additional observations from a re-analysis of the deposited data

How the results depend on the processing

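No tested member was called under any alternative, and the log2 fold changes of the 5 miR-320 loci and of the family kept their direction in all of them. Adjusted p-values ran from 0.412 to 0.981 for MIR320A and from 0.769 to 0.995 for MIR484. Over the settings with all 4 libraries MIR320A ran from 0.36 to 0.56, and the family counted by the sum over loci was at 0.40. With upper quartile factors or library size alone, 3 of the 6 members, all of them miR-320 loci and so not independent, had an unadjusted p below 0.05, as had 162 and 184 of all 1480 features. The change of MIR484 reversed to 0.10 with upper quartile factors and to 0.13 with unscaled library sizes. Removing 1 library at a time, where a lone library is assumed to vary like the others, gave 0.15 to 0.53 for MIR320A, 0.26 to 0.53 for MIR320B1, 0.24 to 0.52 for MIR320B2, 0.40 to 0.93 for MIR320C1, 0.47 to 0.88 for MIR320C2 and −0.37 to 0.16 for MIR484, positive without 52X T4A replicate 1. The differences in log2 ratio to MIR320A then ran from −0.75 to −0.22 for MIR484, −0.00970 to 0.0902 for MIR320B2, −0.17 to 0.73 for MIR320C1, −0.10 to 0.68 for MIR320C2 and −1.49 to 0.34 for MIR320E. With the replicate number as a block MIR320A was at 0.39 (edgeR adjusted p 0.604), no member was called, and 18 features were called in all. Nothing in the labels ties libraries of the same number together, and their deviations from the group means correlated at 0.09, so the block was not treated as a pairing. Over all features the number of calls, 2 in the reported fit, was 9 with library size alone, 0 with factors from miRNAs alone (143 at an unadjusted p below 0.05), 29 without a filter, 29 with DESeq2 and 4 to 218 when a library was left out, with 218 without 52X WT replicate 2. No miRNA from a snoRNA gene was called in any fit with all 4 libraries. The cause of the spread in the number of calls was not tested. MIR320E and MIR320D1 could not be assessed at this depth.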
